A study of Ovis aries with 24 samples.

Results

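Endothelin-1, its type A receptor and endothelial nitric oxide synthase were followed in the ductus arteriosus and the aorta of fetal and newborn sheep. The array carried 4 probes of its 15008 whose names or descriptions gave one of these genes: 1 probe for EDN1 (array name PPET-1, preproendothelin-1), 2 probes for EDNRA (array name ETAR) and 1 probe for NOS3 (array name eNOS). They are 3 of the 693 distinct genes that could be named on the array. All 4 probes were tested: 3 were well above background on all 24 arrays and the first EDNRA probe on 23.

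EDN1 encodes the precursor of endothelin-1, a peptide released mainly by endothelial cells that contracts vascular smooth muscle, and EDNRA encodes the receptor on smooth muscle through which it does so. NOS3 encodes the endothelial enzyme that makes nitric oxide from arginine; nitric oxide diffuses into smooth muscle, raises cyclic GMP and relaxes it. In the ductus arteriosus, the fetal channel between the pulmonary artery and the aorta that closes after birth, endothelin-1 is known as a constrictor and nitric oxide as one of the dilators that keep the vessel open before birth.

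The study compared vessel and stage. Ductus arteriosus and aorta were taken from preterm fetuses (97 days of gestation), near-term fetuses (136 days) and newborn lambs 12 hours old, in a species whose full term was given as 145 days, and the sample titles gave the fetal ages as 100 and 140 days. The aorta was labelled ascending aorta, while the protocol text placed the aortic segments next to the ductus. Each of the 6 groups had 4 arrays and came from 4 animals, with 1 whole-vessel RNA sample labelled with Cy3 on each single-colour array. No group carried an engineered allele or a treatment of its own; ewes and lambs were killed with an overdose of pentobarbital sodium and phenytoin sodium. The labels did not say that the ductus and aorta of the same number came from 1 animal.

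Values are log2 spot intensities relative to the 75th percentile of their own array, here called the normalised log2 signal, so that 0 is the brightness below which 75% of the spots on that array fell. A difference was called when its adjusted p in a limma fit over 13994 tested probes was below 0.05. The 75th percentile ran from 322.1 to 1143 intensity units over the arrays. All 8 arrays of a stage shared 1 slide, and on each slide the ductus took 1 column and the aorta the other, so slide cannot be told apart from stage, nor column from vessel. The detection limit that the scanner software derived from spiked-in RNA was above 1.5 on 3, 3 and 2 aortic arrays and on 2, 2 and 0 ductal arrays of the preterm, near-term and newborn stages. The smooth muscle markers CNN1 and MYLK averaged 3.65 to 6.58 over the 24 arrays, above the 75th percentile throughout. The endothelial markers PECAM1, CDH5 and VWF were not analysed here.

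EDN1, the constrictor precursor, separated the vessels at all 3 stages: the ductal signal exceeded the aortic one by 3.94-fold in preterm fetuses, 2.89-fold near term and 3.33-fold in newborns. It was called with the ductus higher at every stage, which was true of 32 of the 13994 tested probes (0.229%). No change of EDN1 from preterm to newborn was called in either vessel. The median difference of all tested probes between ductus and aorta was -0.20, -0.12 and -0.28 log2 units at the 3 stages, so the EDN1 differences ran against that shift. In whole-vessel RNA, fewer cells of a type and less RNA per cell cannot be told apart.

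The EDN1 probe, a single spot, was well above background on all 24 arrays. In the preterm aorta its normalised log2 signal was -3.51, -3.19, -3.87 and -3.50 in replicates 1 to 4. In the preterm ductus the EDN1 signal was -1.26, -1.31, -1.90 and -1.68. The 4 ductal arrays all lay above the 4 aortic ones with no overlap, a separation in this direction seen for 2.94% of probes at this stage. The difference was 1.98 on the log2 scale (SE 0.34, n = 4 per group, 95% interval 1.27 to 2.68, limma adjusted p 0.00456), in a comparison where 0.707% of probes were called and 0.515% were called higher in the ductus.

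In the near-term aorta EDN1 read -4.30, -2.88, -2.63 and -3.73. In the near-term ductus EDN1 read -1.82, -1.68, -1.44 and -2.48. The near-term aorta was the more variable group (SD 0.77), and its highest array still lay below the lowest ductal array, which 3.48% of probes did in this direction. The near-term difference was 1.53 (SE 0.34, 95% interval 0.82 to 2.24, limma adjusted p 0.0262), where 1.15% of probes were called and 0.679% were called higher. This call was the least firm of the 3: it was lost without near-term aorta replicate 1 (adjusted p 0.111) or 4 (0.0868) and without near-term ductus replicate 1 (0.0554), 2 (0.0818) or 3 (0.115). It was also lost when only the 2 near-term groups entered the fit (adjusted p 0.290) and with normexp background correction, which lowered the difference to 0.77 (adjusted p 0.461).

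In the newborn aorta EDN1 read -3.91, -2.61, -3.64 and -3.36. In the newborn ductus EDN1 read -1.38, -2.02, -1.26 and -1.91. The newborn groups did not overlap either (6.65% of probes lay higher in the ductus without overlap), with aortic replicate 2 the nearest to the ductal arrays. The newborn difference was 1.74 (SE 0.34, 95% interval 1.03 to 2.44, limma adjusted p 0.00266), where 10.1% of probes were called and 5.15% were called higher. With normexp background correction the preterm and newborn differences were smaller, 1.27 and 0.94, and remained called (adjusted p 0.0234 and 0.0311).

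Across stages, all 12 ductal arrays read above all 12 aortic arrays for EDN1, the lowest ductal value being -2.48 and the highest aortic value -2.61. Of 13495 probes with a value on every array, 25 (0.185%) showed this ordering. The complete separation held with the 75th percentile scaling of the processed signal and not with normexp background, quantile normalisation or median centring, under which the extreme arrays of the 2 vessels overlapped. Ranked by group mean, the 3 ductal groups came first (preterm -1.54, newborn -1.64, near term -1.86) and the 3 aortic groups followed (newborn -3.38, near term -3.39, preterm -3.52). The single gap between neighbours that exceeded the larger SD was the one between the near-term ductus and the newborn aorta, 1.52.

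Among the 12 arrays with a detection limit below 1.5, EDN1 kept the same direction, with 1 or 2 aortic arrays at each stage. On these arrays the preterm aorta read -3.51 (1 array) and the preterm ductus averaged -1.61 (2 arrays). The near-term aorta read -4.30 (1 array) against -2.08 in the near-term ductus (2 arrays), and the newborn aorta averaged -3.26 (2 arrays) against -1.64 in the newborn ductus (4 arrays). The 3 differences were 1.90, 2.22 and 1.62 on these arrays, with limma adjusted p of 0.134, 0.0552 and 0.0530. Where an arm is 1 array, that array is assumed to vary like the other groups.

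Over development no EDN1 change was called in either vessel. The ductal change from preterm to newborn was -0.10 (95% interval -0.81 to 0.60, limma adjusted p 0.859). The aortic change from preterm to newborn was 0.14 (95% interval -0.57 to 0.84, adjusted p 0.907). The difference between the vessels in this change was -0.24 (adjusted p 0.980). Between preterm and near term, where 0.493% of probes were called in the aorta and 0.314% in the ductus, EDN1 differed by 0.13 and -0.32 (adjusted p 0.928 and 0.696).

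**Figure D1:**
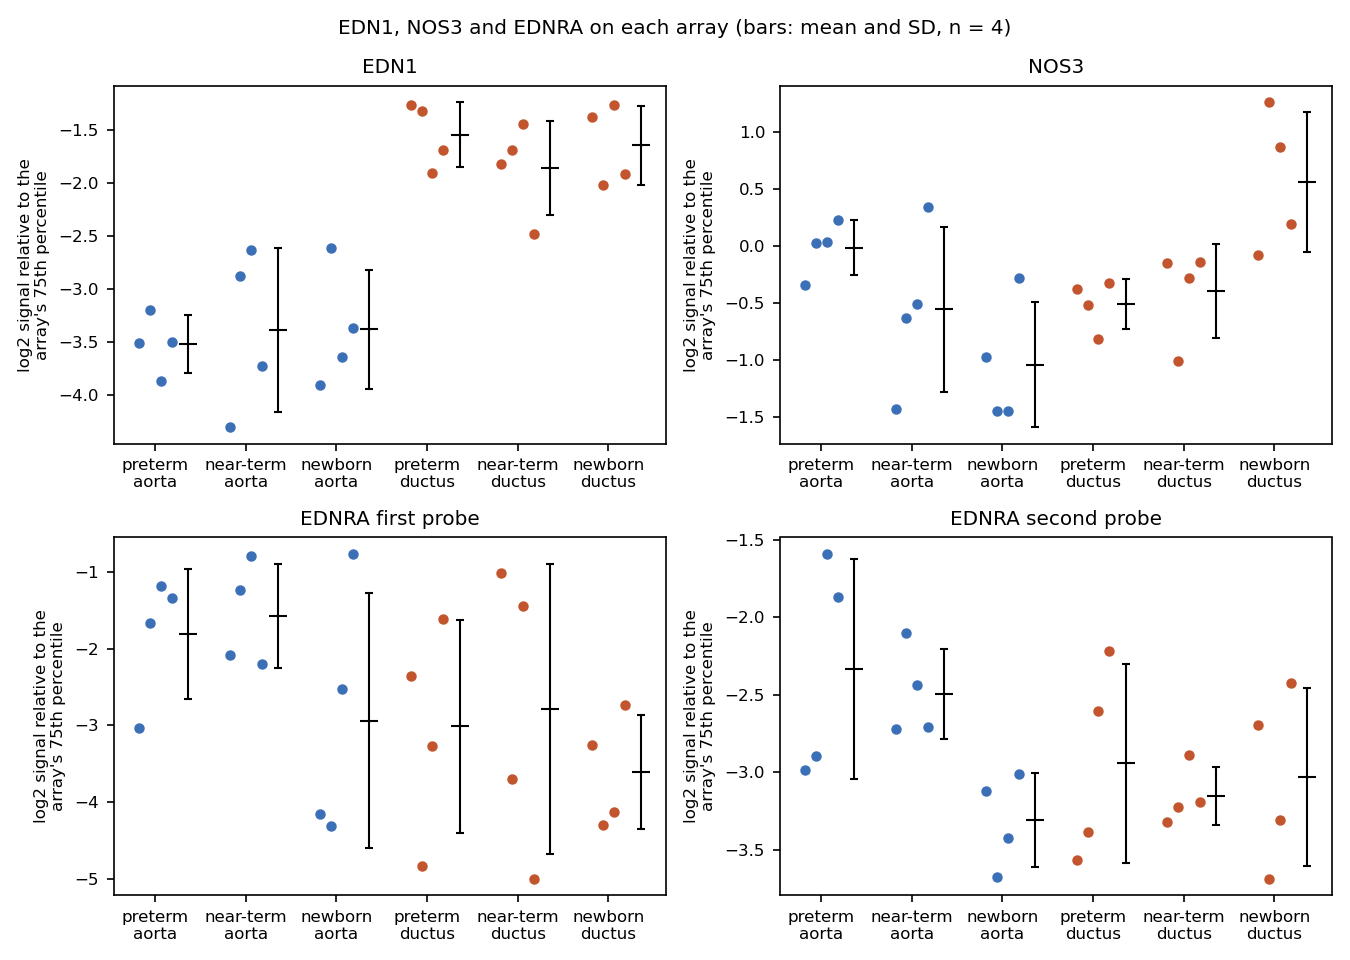
Normalised log2 signal (vertical axis, relative to the array's 75th percentile, each panel on its own scale) of the EDN1, NOS3 and 2 EDNRA probes on each of 24 arrays, by group; points are arrays, bars are the mean and SD of 4. EDN1 separates the vessels at every stage, NOS3 is highest in the newborn ductus (-0.08 to 1.26), and the first EDNRA probe is widely scattered.

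EDNRA, the receptor that carries the constrictor signal on smooth muscle, showed no called difference between vessels or stages on either of its probes. The first probe, printed as 5 spots and the brighter of the pair on average, varied over more than 4 log2 units between arrays. The second probe, a single spot, varied less and did not always follow the first.

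The first EDNRA probe read -3.04, -1.67, -1.18 and -1.34 in the preterm aorta, and -2.35, -4.83, -3.27 and -1.61 in the preterm ductus. It read -2.09, -1.23, -0.79 and -2.20 in the near-term aorta, and -1.02, -3.70, -1.44 and -5.00 in the near-term ductus. It read -4.16, -4.32, -2.52 and -0.76 in the newborn aorta, and -3.26, -4.30, -4.14 and -2.74 in the newborn ductus. The groups overlapped at each stage, and near-term ductus replicate 4 was the one array on which the probe was not well above background. The spots of this probe varied far less within an array (median SD 0.18) than the arrays of a group did (SD 0.68 to 1.89).

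The signal of the first EDNRA probe moved with the detection limit of the array. On the 12 arrays with a limit above 1.5 it ran from -2.52 to -0.76, with a median of -1.39. On the other 12 arrays it ran from -5.00 to -2.09, with a median of -3.92. The second probe differed less between these sets (medians -2.80 and -3.16), as did NOS3 (-0.29 and -0.43), and all 4 newborn ductal arrays belonged to the lower set. The part of the detection limit in the EDNRA values was not tested.

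**Figure D2:**
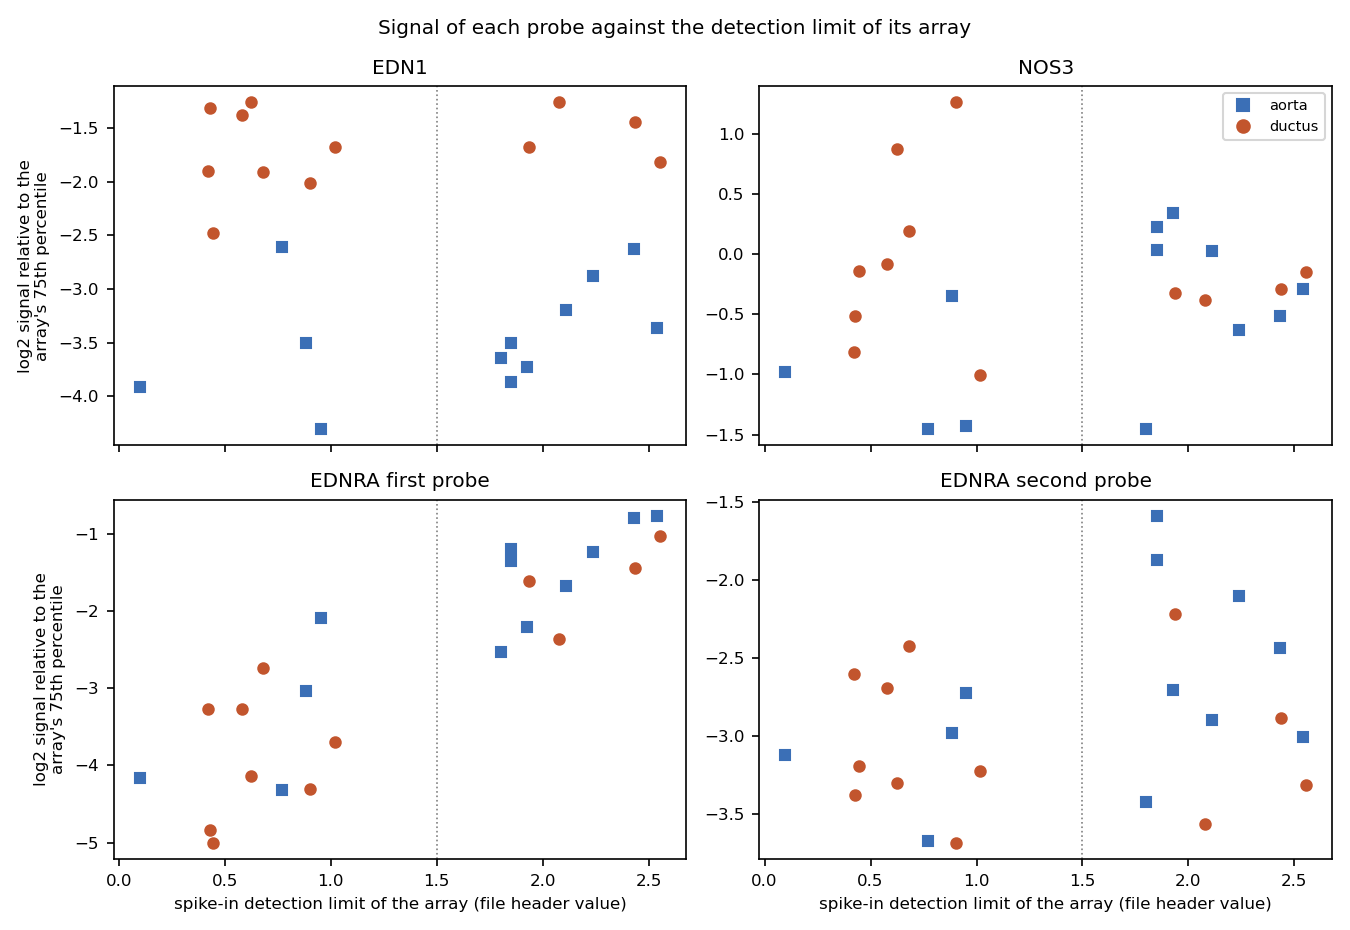
Normalised log2 signal of each probe (vertical axis, each panel on its own scale) against the spike-in detection limit of its array (horizontal axis, value in the file header); squares are aortic and circles ductal arrays, and the dotted line marks 1.5. The first EDNRA probe lies at -2.52 or higher to the right of the line and at -2.09 or lower to its left, while EDN1 separates the vessels on both sides.

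On the first probe EDNRA was 1.21 log2 units lower in the preterm ductus than in the preterm aorta (SE 0.87, 95% interval -3.03 to 0.62, limma adjusted p 0.581). The near-term difference was -1.21 (95% interval -3.04 to 0.61, adjusted p 0.934) and the newborn difference -0.67 (95% interval -2.49 to 1.16, adjusted p 0.596). Differences of these sizes were not detectable with this spread. With array quality weights the preterm difference was -2.12 and passed (adjusted p 0.0215), and on the arrays with a low detection limit the newborn difference turned to 0.63 (adjusted p 0.545).

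The second EDNRA probe read -2.98, -2.90, -1.59 and -1.87 in the preterm aorta, and -3.57, -3.38, -2.60 and -2.22 in the preterm ductus. It read -2.72, -2.10, -2.43 and -2.71 in the near-term aorta, and -3.32, -3.22, -2.88 and -3.19 in the near-term ductus. It read -3.12, -3.67, -3.42 and -3.01 in the newborn aorta, and -2.69, -3.69, -3.31 and -2.42 in the newborn ductus. Near term, the 4 ductal arrays lay below the 4 aortic ones without overlap, as 2.71% of probes did, and at the other stages the vessels overlapped.

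The vessel differences on the second EDNRA probe were -0.61 preterm (limma adjusted p 0.520), -0.66 near term (0.727) and 0.28 in newborns (0.568). The newborn difference thus had opposite signs on the 2 probes. In the aorta the second probe differed by -0.97 log2 units between newborns and preterm fetuses, with no overlap (6.97% of probes lay lower without overlap) and an adjusted p of 0.0871, where 9.1% of probes were called. From near term to newborn it differed by -0.82, again without overlap (5.27% of probes), with an adjusted p of 0.182. On the first probe these aortic changes were -1.13 from preterm to newborn (adjusted p 0.567) and -1.37 from near term to newborn (adjusted p 0.411).

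NOS3, the dilator enzyme, did not differ detectably between the vessels before birth and in newborns the ductal signal was 3.04-fold that of the aorta. Within the ductus it rose 2.10-fold from preterm to newborn. In the aorta the change from preterm to newborn was -1.03 log2 units, in the opposite direction, and did not pass (limma adjusted p 0.0712).

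The NOS3 probe, a single spot, was well above background on all arrays. In the preterm aorta its normalised log2 signal was -0.35, 0.02, 0.04 and 0.23. In the preterm ductus NOS3 read -0.38, -0.52, -0.82 and -0.32. The vessels overlapped by 1 aortic array, replicate 1, and the difference was -0.49 (95% interval -1.22 to 0.23, limma adjusted p 0.573). In the near-term aorta NOS3 read -1.43, -0.63, -0.51 and 0.34, and in the near-term ductus -0.15, -1.01, -0.29 and -0.14. These groups overlapped broadly, and the near-term difference was 0.16 (95% interval -0.56 to 0.88, adjusted p 0.936).

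In the newborn aorta NOS3 read -0.98, -1.45, -1.45 and -0.29. In the newborn ductus NOS3 read -0.08, 1.26, 0.87 and 0.19. All 4 ductal arrays lay above all 4 aortic ones, though ductal replicate 1 and aortic replicate 4 were close, and 6.65% of probes lay higher without overlap in this comparison. The newborn difference was 1.60 (SE 0.35, n = 4 per group, 95% interval 0.88 to 2.33, limma adjusted p 0.00589), where 10.1% of probes were called and 5.15% were called higher. It remained called without any 1 of the 8 newborn arrays (1.37 to 1.86) and on the arrays with a low detection limit (1.78, adjusted p 0.0384), and missed the threshold when only the 2 newborn groups entered the fit (adjusted p 0.0726).

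The 4 newborn ductal arrays also lay above all 8 fetal ductal arrays for NOS3, by a small margin (-0.08 against -0.14), an ordering shown by 5.13% of probes. The rise in the ductus from preterm to newborn was 1.07 (SE 0.35, 95% interval 0.35 to 1.79, limma adjusted p 0.0400), in a comparison where 15.7% of probes were called, 7.36% were called higher and 9.95% lay higher without overlap. It shares its newborn arrays with the difference between the vessels above. This call was near the threshold: leaving out preterm ductus replicate 1, 2, 3 or 4 gave adjusted p of 0.0601, 0.0742, 0.0976 and 0.0577, and leaving out newborn ductus replicate 2 or 3 gave 0.138 and 0.105. With only the 2 groups in the fit the adjusted p was 0.0620, and on the arrays with a low detection limit 0.0953.

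The step from near term to newborn in the ductus was 0.96 for NOS3 (95% interval 0.24 to 1.68, limma adjusted p 0.0801), without overlap, as for 7.26% of probes that lay higher. The step from preterm to near term was 0.11 (95% interval -0.61 to 0.84, adjusted p 0.886). In the aorta the steps were -0.54 (adjusted p 0.686) and -0.49 (adjusted p 0.459), so neither vessel passed on a single step. Without newborn aorta replicate 4, its highest array, the aortic change from preterm to newborn was -1.28 and passed (adjusted p 0.0238). It did not pass in the other 7 of 8 fits that left out 1 array (limma adjusted p up to 0.190).

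The difference between the vessels in the change of NOS3 at birth was 1.44 (SE 0.49, 95% interval 0.42 to 2.46, limma adjusted p 0.362), where 0.393% of probes were called. Over the whole span from preterm to newborn it was 2.10 (SE 0.49, 95% interval 1.08 to 3.12, adjusted p 0.0531), a comparison added after the values were seen, in which 0.629% of probes were called. It passed without preterm aorta replicate 1 (2.21, adjusted p 0.0487) and without newborn aorta replicate 4 (2.35, adjusted p 0.0290). It did not pass in the other 14 of 16 fits that left out 1 array (limma adjusted p up to 0.119).

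Ranked by group mean, NOS3 was highest in the newborn ductus (0.56, SD 0.62), followed by the preterm aorta (-0.02), near-term ductus (-0.40), preterm ductus (-0.51), near-term aorta (-0.56) and newborn aorta (-1.04, SD 0.55). No gap between neighbours in this order exceeded the larger of their SDs.

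**Figure D3:**
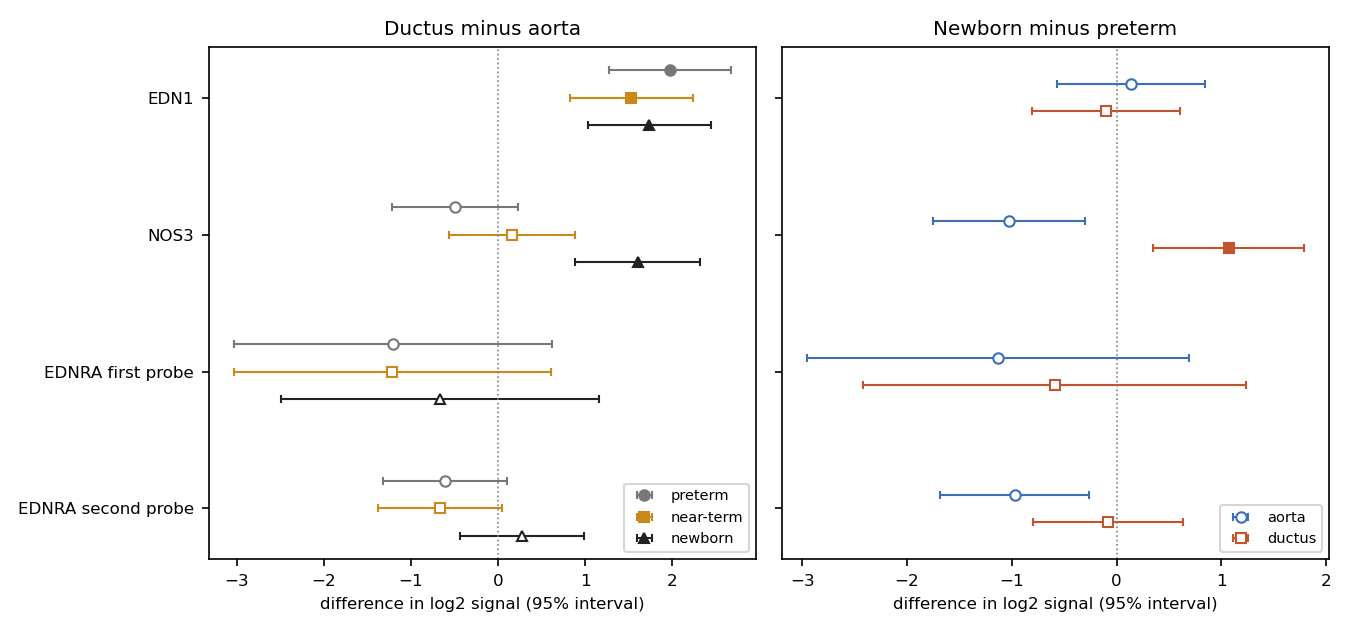
Differences in normalised log2 signal (horizontal axis) with 95% intervals for each probe, ductus minus aorta at 3 stages (left) and newborn minus preterm in each vessel (right), from the limma fit with 4 arrays per group; filled symbols had an adjusted p below 0.05. EDN1 is filled at all 3 stages between vessels, and NOS3 in newborns (1.60) and in the ductus over the whole span (1.07).

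The balance of constrictor and dilator messages was described as the log2 EDN1 signal minus the log2 NOS3 signal on the same array, in which array scaling cancels. Because the level of a probe cannot be set against that of another, it was centred on the mean of the preterm aorta and is given without a test. By group mean it tilted furthest towards EDN1 in the preterm ductus (2.47), which overlapped the near-term ductus (2.04). The gap between the vessels narrowed with stage.

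In the preterm aorta the balance was 0.34, 0.29, -0.40 and -0.23 around its mean of 0. In the preterm ductus it was 2.62, 2.70, 2.41 and 2.15. The ductal arrays were thus well clear of the aortic ones, by 2.47 log2 units or 5.55-fold in the means (SD 0.25 in the ductus and 0.37 in the aorta, n = 4 each). In the near-term aorta the balance was 0.63, 1.25, 1.38 and -0.57, and in the near-term ductus 1.83, 2.83, 2.35 and 1.16. These overlapped, with a difference in means of 1.37 or 2.58-fold.

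In the newborn aorta the balance was 0.57, 2.34, 1.32 and 0.43, and in the newborn ductus 2.21, 0.23, 1.37 and 1.40. The newborn vessels covered nearly the same range, and their means differed by 0.13 or 1.10-fold, less than either SD (0.88 and 0.81). The aortic balance was 1.17 higher in newborns than preterm, without overlap, and the ductal balance was 1.17 lower, with overlap. Between the first and the last stage, the difference between ductus and aorta went from 1.98 to 1.74 for EDN1 and from -0.49 to 1.60 for NOS3.

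The narrowing kept its direction under the settings tried. With normexp background the differences in balance were 1.61 preterm, 0.63 near term and -0.67 in newborns. On the arrays with a low detection limit they were 2.22, 1.36 and -0.16. Leaving out 1 array at a time gave 2.34 to 2.59, 0.95 to 1.66 and -0.17 to 0.53, so the sign of the newborn difference is not settled.

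**Figure D4:**
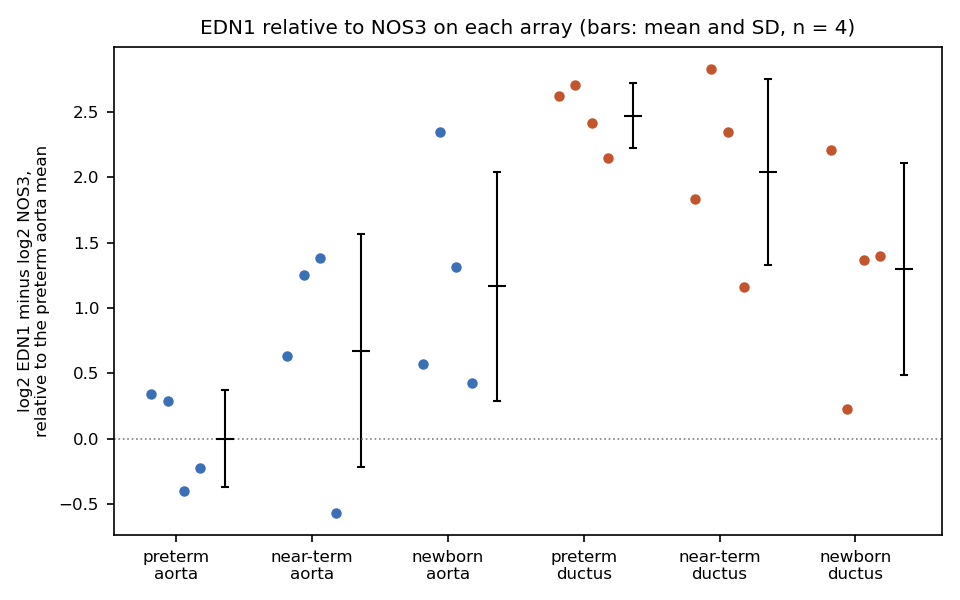
Log2 EDN1 minus log2 NOS3 on each array, relative to the preterm aorta mean (vertical axis), by group; points are arrays, bars are the mean and SD of 4. The preterm ductus lies at 2.15 to 2.70, clear of the preterm aorta, and the newborn groups cover nearly the same range.

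Of the 9 genes listed for the endothelin pathway, 4 were measured: EDN1, EDNRA, EDNRB (the type B receptor, found on endothelium and smooth muscle) and the endothelin-converting enzyme, which cleaves the precursor to the active peptide and is named ECE on the array without a number. At each stage EDN1 was the called member between the vessels, and the median difference of the 4 was 0.08, 0.04 and 0.32, beside the shifts of all tested probes given above. The brighter ECE probe was -0.50 preterm, 0.22 near term and 0.50 in newborns between ductus and aorta (adjusted p 0.497, 0.934 and 0.211), and the other ECE probe differed by 0.76 in newborns (adjusted p 0.0708). EDNRB was dim: the probe that was tested was well above background on 22 arrays, the other on 3. Its differences between the vessels were 0.67, -0.14 and 0.14 (adjusted p 0.591, 0.961 and 0.861).

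Of 19 genes listed as nitric oxide synthases and their regulators, 8 were tested. In newborns NOS3 and ARG2 were called higher in the ductus and no member was called lower, with 3 of the 8 at an unadjusted limma p below 0.05; over all probes 10.1% were called and 5.15% were called higher. ARG2, a mitochondrial arginase that consumes the arginine used by nitric oxide synthases, averaged -1.53 in the newborn ductus (SD 0.80) and -3.19 in the newborn aorta (SD 1.08), a difference of 1.67 (SE 0.48, limma adjusted p 0.0316). Its preterm and near-term differences were 0.86 (adjusted p 0.518) and 1.41 (0.257). The median difference of the 8 genes in newborns was 0.0026, against -0.28 over all tested probes.

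The other synthases were dim and scattered. NOS1, the neuronal form, was not well above background on any newborn ductal array and was so on 2 of 4 newborn aortic arrays for its brighter probe (adjusted p 0.193). NOS2, the inducible form, had 2 probes whose newborn differences were -1.24 and -0.62 (adjusted p 0.344 and 0.556), and another that was not well above background on any newborn ductal array and was so on 2 of 4 aortic arrays (adjusted p 0.216). CAV1, the caveolar protein that binds and restrains NOS3, fell by 1.05 in the ductus from near term to newborn (SE 0.25, limma adjusted p 0.00939), where 10.8% of probes were called and the median difference of all tested probes was -0.31. From preterm through near term to newborn it averaged 0.60, 1.27 and 0.22 in the ductus and 0.99, 1.42 and 0.73 in the aorta. Its aortic fall from near term to newborn was not called. CALM2, a calmodulin gene whose protein activates nitric oxide synthases, fell by 0.99 in the aorta at the same step (SE 0.29, adjusted p 0.0463, with 1 of the 4 newborn aortic arrays left out for a flagged spot), where 6.45% were called.

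Of 15 genes listed as nitric oxide and cyclic GMP effectors, 3 were tested. NPPC, the precursor of C-type natriuretic peptide, which raises cyclic GMP through its own receptor, was higher in the newborn ductus (0.61, SD 0.88) than in the newborn aorta (-2.98, SD 2.81) by 3.59 (SE 0.99, limma adjusted p 0.0246), and 1 of the 4 newborn aortic arrays was not well above background. The vessels overlapped, at -6.12 to 0.40 in the newborn aorta and -0.12 to 1.88 in the newborn ductus. In this comparison 10.1% of probes were called and 5.15% were called higher. GUCY1B1, a subunit of the soluble guanylate cyclase that senses nitric oxide, fell by 0.98 in the ductus from preterm to newborn (SE 0.27, adjusted p 0.0161), in the direction opposite to NOS3. Over all probes 15.7% were called in that comparison and 8.34% were called lower. PRKG1, the cyclic GMP-dependent kinase, differed between the vessels by -0.50 in newborns and was not called.

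**Figure D5:**
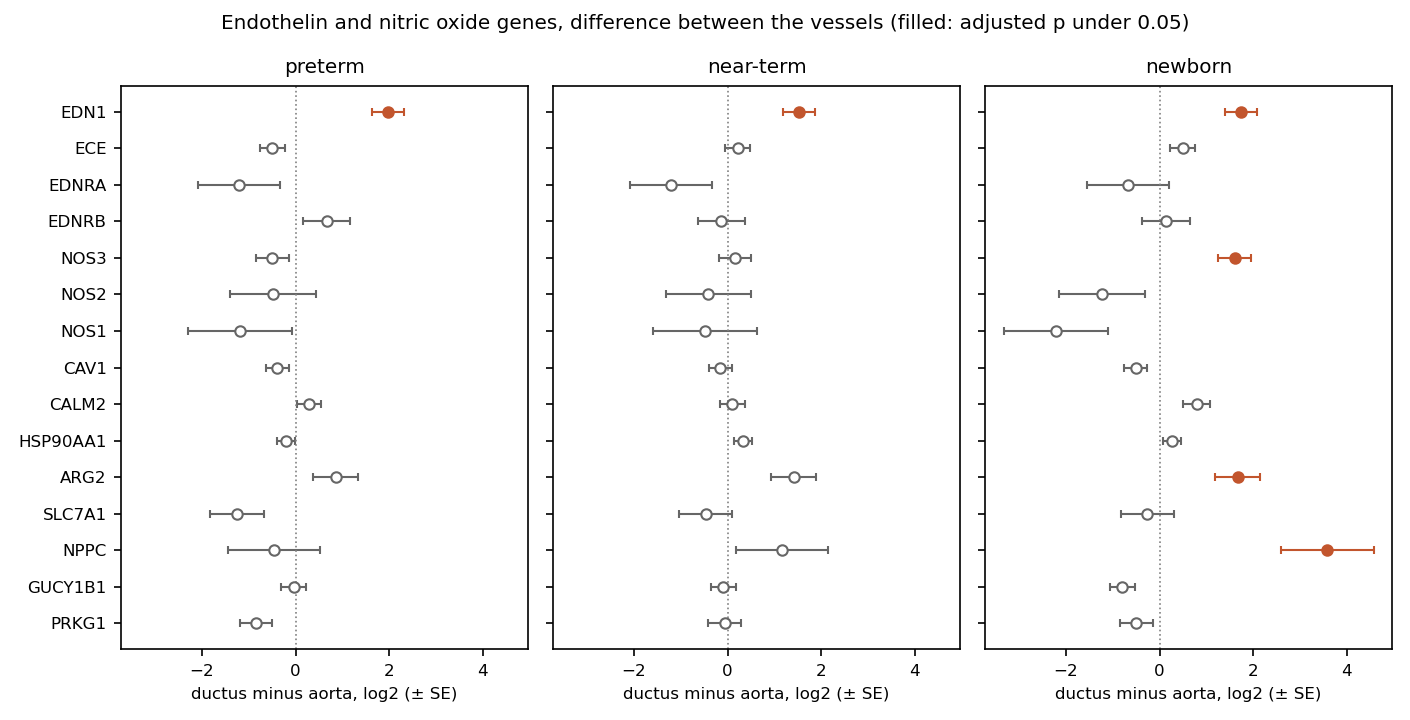
Ductus minus aorta difference in normalised log2 signal (horizontal axis, bars are the SE) for 15 endothelin and nitric oxide genes at 3 stages; filled symbols had an adjusted p below 0.05 in the limma fit. EDN1 is filled at all stages, and NOS3, ARG2 and NPPC are filled in newborns. The newborn NOS1 and preterm SLC7A1 points rest on groups not above background.

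Of 25 other vasoactive peptides and receptors listed, 6 were tested. NPY1R, the constrictor receptor for neuropeptide Y, was lower in the ductus at each stage, by -1.45 (adjusted p 0.0490), -1.95 (0.00500) and -2.40 (0.000131), the reverse of EDN1. AGTR1, the constrictor angiotensin receptor, was lower in the newborn ductus by -1.22 (adjusted p 0.0429). AGTR2, which opposes it in many vessels, changed from preterm to newborn by -3.57 in the aorta (limma adjusted p 0.000305) and by -2.91 in the ductus (0.00115). It was well above background on 3 of 4 newborn aortic arrays. Over all probes 0.193%, 0.472% and 4.97% were called lower in the ductus than in the aorta at the 3 stages. From preterm to newborn 5.16% were called lower in the aorta and 8.34% in the ductus.

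Endothelial markers were followed beside EDN1 and NOS3, since both are transcribed largely in endothelium. Apart from NOS3, 6 of 18 listed markers were tested (KDR, FLT1, TEK, TIE1, SELP and ICAM1). Their mean normalised log2 signal ran from -4.01 to -3.13 in the preterm aorta, -4.31 to -3.34 in the preterm ductus, -3.54 to -2.79 in the near-term aorta and -4.07 to -2.44 in the near-term ductus. With limma no endothelial marker, NOS3 included, was called between the fetal vessels, and 0 of the 7 had an unadjusted p below 0.05 at either stage. The group means of the 6 markers were -3.83 in the ductus (SD 0.50) and -3.40 in the aorta (SD 0.41) preterm, and -3.28 (SD 0.80) and -3.17 (SD 0.30) near term. The near-term order rested on FLT1, well above background on 2 of 4 ductal arrays: without it, a choice made after seeing the data, the means were -2.98 in the ductus and -3.09 in the aorta near term, and -3.44 and -3.29 preterm. In newborns the mean ran from -4.10 to -2.72 in the aorta (group mean -3.43) and from -3.33 to -2.49 in the ductus (group mean -2.79). Without FLT1 the newborn means were -3.25 in the aorta and -1.90 in the ductus. The other endothelial markers were thus higher in the newborn ductus on average, SELP and ICAM1 by the most, at the stage where NOS3 was.

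The adhesion molecules SELP and ICAM1, which activated endothelium puts on its surface, were called higher in the newborn ductus, by 2.68 (limma adjusted p 0.000144) and 2.23 (0.00101). The endothelial receptors KDR, TEK and TIE1 differed by 0.47, 0.88 and 0.45 and were not called (adjusted p 0.219, 0.215 and 0.392). FLT1 was not well above background on any newborn ductal array. In the ductus from preterm to newborn, where NOS3 rose, SELP and ICAM1 rose by 3.67 and 2.54 (limma adjusted p 1.4e-06 and 0.00012). Over that span TEK went from -4.37 to -3.60, TIE1 from -4.24 to -3.26, KDR from -2.65 to -2.94 and FLT1 from -5.78 to -7.22. None of them was called. The 4 tested macrophage markers (CD14, CD86, ITGAM and TLR4) were all called higher over the same span, where 7.36% of all probes were. Their mean signal went from between -3.99 and -3.46 to between -2.40 and -1.81. Markers of other cells also differed between the newborn vessels. All 3 tested genes listed as neutrophil markers (CATHL1B, BAC5 and LPO) were called lower in the newborn ductus, though LPO is not specific to neutrophils. In this comparison 4.97% of all probes were called lower and 5.15% higher. The mean of the 3 genes ran from -7.20 to -4.99 in the ductus against -3.74 to -2.32 in the aorta. CATHL1B and BAC5 were each well above background on 1 of 4 newborn ductal arrays and LPO on 0, so the sizes of these differences are uncertain. The spike-in detection limit was above 1.5 on 2 newborn aortic arrays and on 0 newborn ductal arrays. Its part in the newborn differences of the dim markers in this paragraph was not tested. Of the 4 fibroblast markers, DCN and C3 were called higher (1.31 and 2.63, adjusted p 0.00265 and 0.000239) and COL1A1 and COL3A1 differed by -0.44 and -0.75. The plasma protein gene ALB was called lower (limma adjusted p 0.0342), by at least 6.92-fold in the means. It was not well above background on any newborn ductal array. Its aortic mean was thus set against the lowest signal of probes well above background there, or its own where higher. The newborn aortic arrays ran from -4.40 to -0.62 for ALB, 3 of 4 well above background. The erythroid marker HBB differed by 1.02 (limma adjusted p 0.383). Of the 4 lymphocyte markers CXCR4 was called higher (1.92, adjusted p 0.000603). The others were not called and averaged lower in the newborn ductus. They read -4.87 against -3.98 in the newborn aorta for CD3E, -6.50 against -4.65 for CD3D and -7.44 against -4.97 for CD4. CD3D and CD4 were not well above background on any newborn ductal array. Of the 4 macrophage markers CD86 was called higher, while TLR4 averaged lower in the newborn ductus (-2.33 against -1.80) and was not called. The part of endothelial content, endothelial activation or these other cells in the NOS3 differences was not tested.

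The genes whose signal was most like that of each member over the 24 arrays were taken from 658 named genes, by Pearson r, as a description of arrays that share slides and groups. For EDN1 they were IL1A (r 0.83), HOXA4 (0.79), ARG2 (0.78), IGFBP6 (0.77) and ANXA2 (0.71). For NOS3 they were CXCR4 (0.80), NPPC (0.71), HYAL2 (0.70), FOS (0.67) and SLC2A3 (0.66). For EDNRA, on its first probe, they included IL7 (0.93), EPAS1 (0.93), BSP5 (0.91) and PTGER2 (0.91), on a probe that moved with the detection limit of the array. EDN1 and NOS3 themselves had an r of 0.27, and the 2 EDNRA probes an r of 0.59.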

How the data were processed

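Per the file headers, the deposited values are spot intensities from Agilent Feature Extraction 9.5.3.1, in which the processed signal is background-subtracted and spatially detrended; further normalisation is not given in the sources used here. Control spots and spots flagged as non-uniform or as population outliers were left out, log2 processed intensity was set relative to the array's 75th percentile, and spots of a probe were averaged. Probes well above background on at least 4 of 24 arrays (13994) were fitted with limma 3.58.1 in R 4.3.3 (6 group means, eBayes, two-sided, Benjamini-Hochberg within each of 12 comparisons). The number of arrays limits the precision, and p-values measure the spread between these arrays, labelled as separate animals. The fit was tested on simulated data. Symbols came from the array's names and the RefSeq table, for 1208 probes, 25 of them by hand. A gene with several probes is represented in lists by the brightest on average. The members and lists were chosen with earlier results of these data known. Named genes are the 3 members, other endothelin receptors, converting enzymes and synthases measured, up to 4 called genes a list and comparison, and the 5 named genes most correlated with each member, of which 1 is not reported here. The smooth muscle, endothelial and other markers were listed likewise. Sequences and genome positions are not used here. Alternatives tried were background correction, scaling, filters, weights, prior, flagged spots, arrays entered, replicate blocks and leaving out each array. Deviations of same-numbered ductus and aorta arrays gave 6 of 12 correlations above 0.1 (from -0.59 to 0.82). Differently numbered arrays of a stage gave 14 of 36 (from -0.76 to 0.77). In newborns the same-numbered correlations were 0.19, 0.15, 0.15 and -0.04. Since arrays of different number also deviated together, this could neither show nor exclude pairing, and the numbers were not treated as pairs.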

Additional observations from a re-analysis of the deposited data

Results flagged for a closer look

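Near-term ductus replicate 2 stood apart from the rest of its group for NOS3, at -1.01 against -0.29 to -0.14 on the other 3 arrays. It was 1 of 30 groups of arrays checked over the 4 probes and the balance, where chance would give about 1.5. The same array had the highest EDN1 to NOS3 balance of its group (2.83) and a spike-in detection limit below 1.5.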

How the results depend on the processing

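The members' directions and calls were recomputed under 13 other settings at most and without each array in turn. Of 444 values of the 3 genes under other settings, 389 kept direction and side of the threshold, and of 360 without 1 array, 319 did. The rest follow, and the cause of each was not tested.

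With fewer arrays or groups, calls were lost. On the 12 arrays with a detection limit under 1.5, EDN1 between the vessels was 1.90, 2.22 and 1.62 and NOS3 in the ductus from preterm to newborn 1.23, none passing; the preterm and near-term aortic arms were then 1 array each, assumed to vary like the other groups. On these arrays the sign turned for EDNRA between newborn vessels (0.63) and in the ductus from preterm to near term (-0.30), near term to newborn (0.74) and preterm to newborn (0.44), for EDN1 in the aorta from preterm to near term (-0.80) and for NOS3 in the aorta from near term to newborn (0.22). The EDN1 differences between the vessels' changes turned to 0.33 and -0.61. With only the groups compared in the fit, EDN1 near term (1.53), NOS3 in newborns (1.60) and NOS3 in the ductus over the whole span (1.07) did not pass.

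With normexp background EDN1 near term was 0.77 and did not pass, while the ductal changes at birth of NOS3 (0.93) and EDNRA (-1.25) and the NOS3 difference between the vessels over the whole span (1.94) passed. EDN1 at birth turned to -0.41 in the aorta and -0.24 in the ductus, and the EDNRA differences between the vessels' changes to 0.28 and -0.27. The EDN1 to NOS3 balance moved to 1.61 in the preterm and 0.27 in the newborn ductus. With quantile normalisation EDN1 in the aorta from preterm to near term was -0.13 and the NOS3 whole-span difference between the vessels passed at 1.99. With median centring EDN1 in that step was -0.046, the ductal step was -0.034 for EDNRA and -0.15 for NOS3, and NOS3 at birth in the ductus passed at 1.27. With the percentile taken over probes detected on all arrays, EDN1 in the aorta at birth was -0.071 and NOS3 in the ductus over the whole span (1.05) did not pass. With outlier spots kept, the EDNRA difference between the vessels' first changes was 0.0078.

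With array weights, which call far more probes, further values passed: EDNRA between preterm vessels (-2.12) and in the ductus at the first step (2.04) and at birth (-2.02), EDN1 (0.65) and NOS3 (-0.65) in the aorta at the first step, NOS3 in the ductus at birth (0.82) and in the aorta over the whole span (-1.34), and NOS3 between the vessels' changes (0.96, 1.51 and, over the whole span, 2.47). Weights turned EDN1 to -0.54 in the aorta and -0.13 in the ductus at birth and to 0.070 in the ductus at the first step, and EDNRA to 0.026 in the ductus over the whole span and to 1.87 and -0.37 between the vessels' changes. The trended robust prior passed NOS3 in the aorta (-1.03) and between the vessels (2.10) over the whole span, as did the filter on 12 arrays for the latter (2.10). The second EDNRA probe gave 0.28 between newborn vessels, -0.16 and -0.21 at the first step in aorta and ductus, and 0.13 at birth in the ductus.

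Leaving out 1 array gave 1.22 to 1.78 for EDN1 and -0.13 to 0.46 for NOS3 between near-term vessels, and -1.13 to 0.059 for EDNRA between newborn vessels. In the aorta it gave -0.12 to 0.44 (EDN1) and -0.18 to 0.44 (EDNRA) at the first step, -0.30 to 0.26 (EDN1) at birth, and -0.12 to 0.31 (EDN1) and -1.28 to -0.89 (NOS3) over the whole span. In the ductus it gave -0.38 to 0.96 (EDNRA) at the first step, and -0.23 to 0.022 (EDN1) and 0.84 to 1.28 (NOS3) over the whole span. Between the vessels' changes it gave -0.61 to 0.73 (EDNRA) at the first step, -0.044 to 0.51 (EDN1) and -0.19 to 1.27 (EDNRA) at birth, and -0.42 to 0.017 (EDN1), -0.065 to 1.27 (EDNRA) and 1.87 to 2.35 (NOS3) over the whole span.

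With replicate number as a block within stage, no call of the 3 genes changed (EDN1 adjusted p 0.0154, 0.0366 and 0.00580 between the vessels, NOS3 0.0198 in newborns). Whether same-numbered arrays were pairs could not be told from their correlations. Called probes between the vessels were 99, 161 and 1416 without the block and 185, 263 and 2016 with it. Over the other settings they ranged from 33 to 3148, 40 to 3287 and 371 to 3653, and in the ductus and aorta from preterm to newborn (2197 and 1273) from 1218 to 2987 and 314 to 2453. Slide as a block was not run, since stages do not share a slide. In simulated data at this size, 28 of 100 probes changed by 1 log2 unit and 61 of 100 changed by 2 units were recovered in the newborn comparison. The simulation held only these changed probes among 13495, with noise independent between probes. In the real newborn comparison 10.1% of probes were called. Differences of these sizes can thus be missed, at rates that may differ from the simulated ones.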
